A study of Mus musculus with 4 samples.

Results

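Heat shock proteins and chaperonins were described in neural stem cells from wild-type and Olig1 KO mouse embryos. The members were all genes with a single-gene probe set whose platform symbol began with Hspa, Hspb, Hspd, Hspe, Hsph, Hsp90 or Dnaj, or was Tcp1 or one of Cct2 to Cct8. Hspa5, Hsp90b1, Dnajb9 and Dnajc3, which respond to stress of the endoplasmic reticulum, were left out. The rule used names and no measured value, and it gave 66 of the 12393 genes with a single-gene probe set. These 66 genes had 136 probe sets, and 39 genes had more than 1. Cct6a and Cct6b were both taken for Cct6. Hsp90ab1 was not analysed here.

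The study asks how transcript levels differ when Olig1, a transcription factor gene of the oligodendrocyte lineage, is mutated. The labels give 1 array as wild type and 3 as Olig1 KO. All 4 samples were neural stem cells from ganglionic eminences, a ventral part of the embryonic forebrain in which interneurons and early oligodendrocyte precursors are born, at embryonic day 14.5. The C57/Bl6 background and a serum-free culture medium with EGF were common to all of them. KO replicates 2 and 3 carry the numbers 37 and 38 in their titles, and KO replicate 1 carries none. The labels give neither the KO allele nor the number of embryos or cultures behind the samples. With 1 wild-type array, p-values rest on the spread between the 3 KO samples only. In such bulk samples, fewer cells of a type and less RNA per cell cannot be told apart.

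Chaperones bind unfolded or partly folded proteins and help them fold, assemble or be degraded. HSP70 proteins cycle between ATP and ADP as they hold and release clients, J proteins deliver clients and start ATP hydrolysis, and HSP110 proteins exchange the nucleotide. HSP90 acts later, on kinases and receptors among others, and small heat shock proteins hold denatured proteins. Chaperonins are barrels that enclose a client: HSP60 with its lid HSP10 in mitochondria, and CCT, which folds actin and tubulin, in the cytosol. Some of these genes are constitutive, while others are induced by heat shock factors.

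The 4 arrays form pairs that do not follow genotype. The wild-type array and KO replicate 1 had Xist signals of 9480.5 and 8472.5 and Eif2s3y, a Y-linked gene, at 0.608 and 1.53, whereas KO replicates 2 and 3 had Xist at 160.9 and 46.5 and Eif2s3y at 653.8 and 1160.5. For 18S rRNA, the median signal of wild type and KO replicate 1 was 4.64 and 7.24, against 946 and 2823 for the other arrays, and the 3′ to 5′ signal ratio of actin ran from 1.11 in the wild-type array to 1.82 in KO replicate 3. What the pairs contribute to the results was not tested, and genotype can be compared within a pair only between the wild-type array and KO replicate 1. Olig1 itself had a signal of 7618 with wild-type RNA, and of 3839.6, 4438 and 8548 in KO replicates 1, 2 and 3. The sources used here do not say whether its probe set lies in the deleted part, so it does not check the genotype labels. All 9 measured neural stem cell markers were above background in every array, with summed signals of 38850.2 in wild type and 36233, 52476 and 56434 in KO replicates 1, 2 and 3. Above background means above the highest of 27 bacterial control probe sets with no target in the sample, which was 21.3 to 87.8 by array. Of other cell types' markers, 3 of 7 for neurons were above background in every array (summed signal 2127 in wild type, 1051 to 1683 in KO), as were 4 of 5 for astrocytes (8369.7, 6635 to 8176) and 2 of 5 for oligodendrocytes (2139.9, 2006 to 3673). The same held for 2 of 3 markers of oligodendrocyte precursors (301, 312 to 471), 2 of 6 of microglia (274, 306 to 431) and 1 of 5 of mesenchyme (194, 159 to 375). It held for 0 of 5 endothelial markers (268, 179.6 to 213) and 0 of 2 blood markers (28.9, 27.0 to 67.0), and Mobp, Mog, C1qa, Tek, Pdgfrb and Alas2 were at background in all 4 arrays.

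No heat shock or chaperonin gene was called as higher or lower in KO. Of the 66 genes, 52 passed the filter on dim genes and were tested among 7436 genes. Limma called 0 of the 52 members at an adjusted p under 0.05, and 0 of all genes, which is 0.0% of those tested. The adjusted p was 0.99997 for every member in limma's fit. At an unadjusted p under 0.05 limma had 0 members and 168 genes, 2.26% of those tested, and the lowest unadjusted p of a member was 0.0859, for Hspbp1. The KO mean was higher than the wild-type value in 33 members and lower in 19. The median log2 difference over the 52 members was 0.12, against 0.00 over all genes tested, and it was 0.03, 0.10 and 0.13 in KO replicates 1, 2 and 3. The members' median was lower under 5 of the alternative settings by over 1.5 times: 0.07 with the mean of all probe sets, 0.04 with every probe set separately, 0.03 with the pairs of arrays as a block, 0.06 without KO replicate 2 and 0.05 without KO replicate 3. Over all genes or probe sets tested, the medians under these settings were -0.02, -0.02, 0.02, -0.01 and 0.02 in the same order. With the block the members were thus close to all genes. All log2 differences are KO minus wild type on log2(signal + 14.4), which understates the change of dim genes.

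The members' place in the arrays can also be counted without a model. The wild-type array lay below all 3 KO arrays in 15 of 52 members, 28.8%, beside 23.2% of all genes tested. For 7 members, 13.5%, the wild-type array was above all 3 KO arrays, beside 20.6% of all genes. In 0 members was the gap to the nearest KO array 0.5 log2 units or more, beside 3.15% of all genes. Without the filter, the wild-type array was below in 23 of 66 members and above in 8, where 25.2% of all genes were below and 18.6% above. The 4 arrays spanned at least 1 log2 unit in 6 members, 11.5%, which were Hspa8, Dnajb11, Dnajb12, Dnajc4, Dnajc28 and Hspb11, beside 18.2% of all genes.

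**Figure D1:**
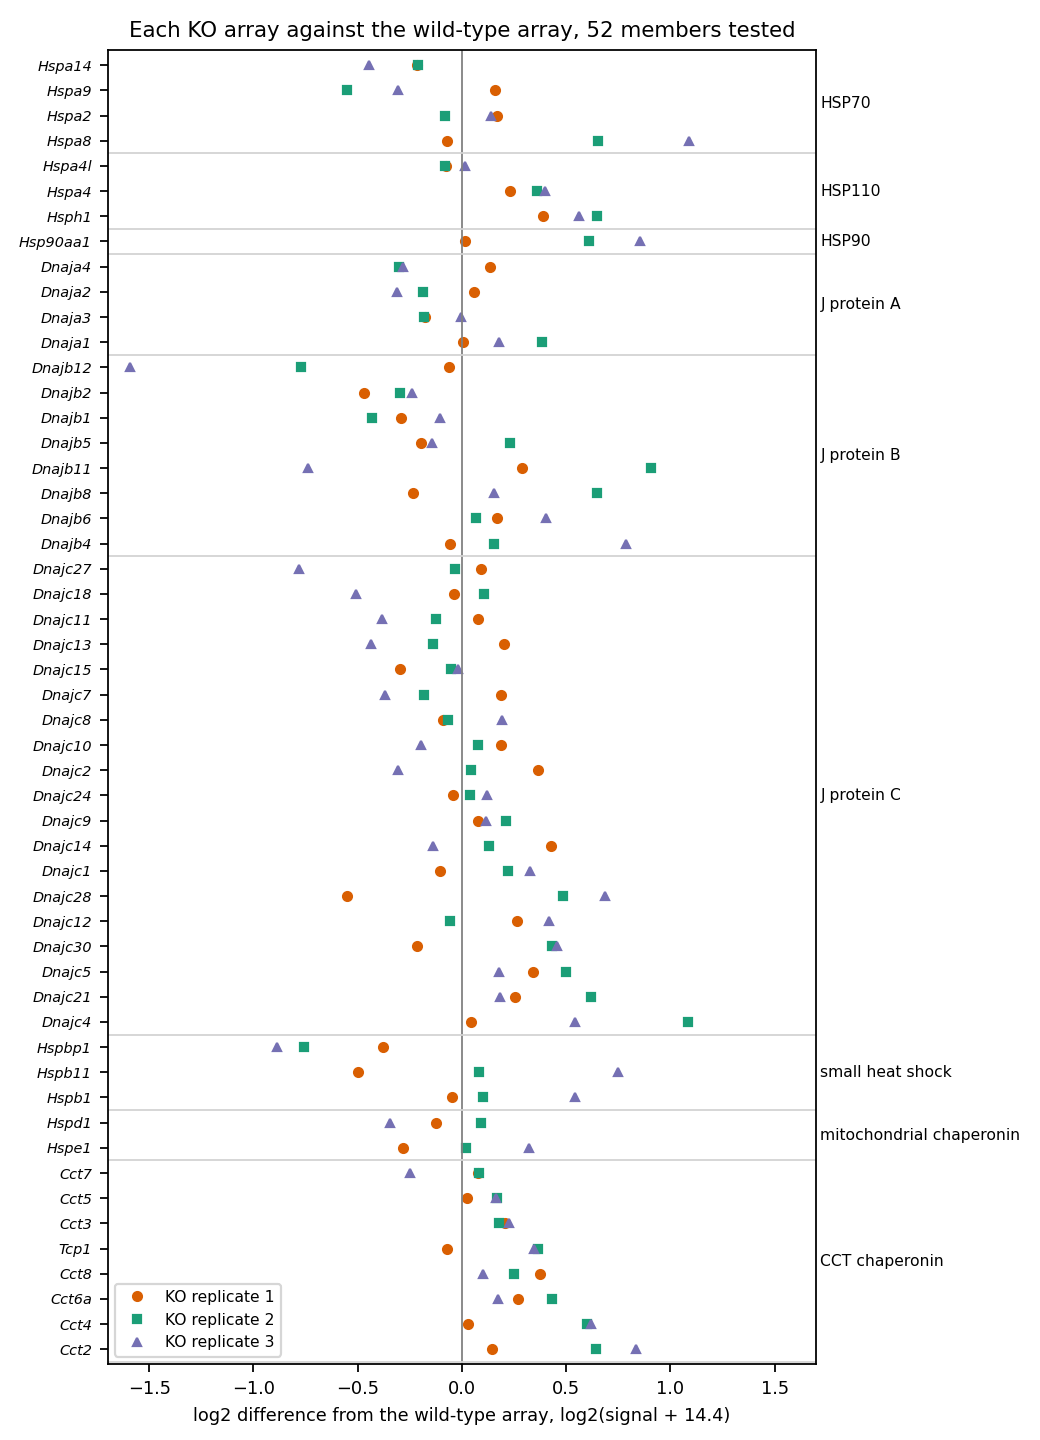
Log2 difference of each KO array from the wild-type array for the 52 members tested, grouped by role, with 1 point per KO array on log2(signal + 14.4) and the vertical line at 0 standing for the wild-type array. All 3 points lie to the right of 0 for 6 of the 8 CCT genes, while the points of most other genes lie on both sides of it. The group labelled small heat shock holds the genes with Hspb symbols, of which only Hspb1 encodes a small heat shock protein.

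The pairs of arrays also divided the members. KO replicates 2 and 3 were both above the wild-type array and KO replicate 1 in 20 of 52 members, 38.5%, where 24.8% of all genes tested showed this order. They were both below in 9 members, 17.3%, beside 25.8% of all genes. Many members lie among the brightest genes of the array: 15 of the 52 were in the 10% of tested genes with the highest mean signal, including all 8 tested CCT genes and both mitochondrial chaperonin genes. Over those 744 genes, KO replicates 2 and 3 were both above in 47.8%, the wild-type array was below all KO arrays in 19.8%, and the median log2 difference was 0.09.

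Among the HSP70 genes, 4 of 8 were tested, and the KO mean was higher in 2 and lower in 2, with a median log2 difference of -0.08. Hspa8 encodes Hsc70, the constitutive cytosolic HSP70. Its brightest probe set gave 10794 in wild type and 10258, 16992 and 23015 in KO replicates 1, 2 and 3. The wild-type array thus lay between KO replicate 1 and the other KO arrays, and the log2 difference was 0.56 (SE 0.47, n = 1 and 3, adjusted p = 0.99997 by limma). A second Hspa8 probe set gave 12590.1, 10868, 15624 and 14204 in the same order, and another gave 5686, 6531, 7301 and 6172. KO replicate 3, the highest array in the first, was not the highest in these, and over these 3 probe sets the log2 difference ran from 0.09 to 0.56. A much dimmer Hspa8 probe set, at background in KO replicate 3, gave 157, 68.0, 165 and 85.2 (log2 difference -0.60). The first and second probe sets have probes that, by their suffix, can also match other transcripts. Hspa8 also has near-identical copies, so these values are uncertain.

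Hspa9 encodes mortalin, the HSP70 of the mitochondrial matrix. Its signals were 2712 in wild type and 3031, 1849 and 2189 in KO replicates 1, 2 and 3, so the wild-type array lay inside the KO range (log2 difference -0.23, SE 0.37). Hspa14 encodes an HSP70 that works at the ribosome. It gave 1305 in wild type and 1122, 1125.5 and 953 in KO, with the wild-type array above all 3 (log2 difference -0.29, SE 0.31), but a second, dimmer Hspa14 probe set had the opposite sign (0.15). Hspa2, the HSP70 best known from male germ cells, gave 126 in wild type and 143, 118 and 140.1 in KO, which overlapped.

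The heat-inducible HSP70 genes Hspa1a and Hspa1b, neighbours on chromosome 17 with the testis form Hspa1l, were too dim to be tested. Hspa1a was 32.0 in wild type and 33.0, 62.8 and 44.6 in KO replicates 1, 2 and 3, and in KO replicate 3 it was at background. The brightest Hspa1b probe set was above background in all 4 arrays, at 67.6 in wild type and 126, 42.5 and 92.5 in KO. The wild-type value lay inside the KO range. Hspa1l and Hspa12b were at background in all 4 arrays. Hspa1a and Hspa1b are near-identical, and their probe sets cannot be taken as separate measures of each gene.

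The HSP110 genes, whose products reload HSP70 with ATP, had a median log2 difference of 0.33 over 3 tested genes. The wild-type array was below all KO arrays in 2 of the 3, beside 23.2% of all genes tested. Hsph1 encodes the inducible HSP105. Its brighter probe set gave 664 in wild type and 873, 1048 and 985 in KO replicates 1, 2 and 3, so that every KO array was higher and the gap to the nearest was 0.39 log2 units. The log2 difference was 0.53 (SE 0.31, adjusted p = 0.99997 by limma). The other Hsph1 probe set gave 449, 534, 551 and 235. There KO replicates 1 and 2 were again above the wild-type array and KO replicate 3 was below it, and the log2 difference was -0.12.

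Hspa4, another HSP110, gave 1176 in wild type and 1383, 1516 and 1554 in KO replicates 1, 2 and 3 on its brightest probe set. All 3 KO arrays were higher (log2 difference 0.33, SE 0.30). A second Hspa4 probe set ran the other way, with 617.5 in wild type and 529, 476 and 182 in KO (log2 difference -0.76), and the last was close to level (0.08). Hspa4l gave 367 in wild type and 348, 346 and 371 in KO, which overlapped, and its other probe set had a log2 difference of -0.41. With the mean of all probe sets of each gene in place of the brightest, the group's median log2 difference was -0.11, so its direction rests on which probe set stands for a gene.

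Heat shock factors bind repeats of the unit GAA and its reverse TTC in alternation, with 2 bases between units. The promoters of the members were searched on both strands for 3 such units, starting with either, because some members are induced by these factors and others are not. RefSeq promoters of GRCm38.p6, each 300 bases from 250 before to 50 after a start, were found for 54 of the 66 members. The 3 units were found in 4 of the 54 (7.41%), which were Hsph1, Dnajb6, Hspd1 and Hspe1, and in 179 of all 27025 genes with a promoter (0.662%). Hspd1 and Hspe1 share 1 stretch with the match, so it counts for both. The CCT genes had it in 0 of 8, which were 7 of the tested genes and Cct6b, with no promoter for Cct4. At a share of 0.662% of all genes, 0 of 8 does not set CCT apart. The heat-inducible Hspa1a, Hspa1b and Dnajb1 also had no match, nor did Hspb1. For Hsp90aa1 and Hspa8 no promoter was found, so they were not searched. Any such 3 units contain both 8-letter pairs, so these searches overlap. The pair GAANNTTC was in 13 of 54 members (24.1%) and 9.04% of genes, and the pair TTCNNGAA was in 8 (14.8%) and 9.60%. A match shows only that these letters are there, and for a promoter without one, only that they are not in this window. The Hsph1 window, chr5:149636266-149636565 on the minus strand, is shown since Hsph1 is the inducible member with the largest gap between the wild-type array and the KO arrays. The capitals mark the 3 units, 15 to 27 bases after the start of this window and 36 to 48 bases after another Hsph1 start.
Hsph1: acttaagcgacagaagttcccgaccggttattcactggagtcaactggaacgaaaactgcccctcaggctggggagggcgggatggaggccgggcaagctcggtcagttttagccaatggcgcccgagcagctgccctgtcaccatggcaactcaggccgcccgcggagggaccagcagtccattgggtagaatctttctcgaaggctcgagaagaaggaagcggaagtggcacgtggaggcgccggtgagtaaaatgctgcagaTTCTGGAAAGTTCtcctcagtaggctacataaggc

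The only HSP90 gene tested was Hsp90aa1, the inducible cytosolic form. Its probe set with the highest mean gave 6526 in wild type and 6586, 9957 and 11828 in KO replicates 1, 2 and 3. The wild-type array and KO replicate 1 were nearly level and the other KO arrays higher, with a log2 difference of 0.49 (SE 0.40, adjusted p = 0.99997 by limma). A second probe set gave 7119, 6580.3, 8188 and 7271, and the last gave 6444, 6119, 7506 and 4474. Their log2 differences were 0.04 and -0.13, and KO replicate 3 was the lowest array of the last and the highest of the first.

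The J proteins bring clients to HSP70 and are the largest family here, with 36 genes measured and 31 tested. The KO mean was higher in 18 and lower in 13, with a median log2 difference of 0.03. The wild-type array was below all KO arrays in 6 of them (19.4%) and above in 5 (16.1%), beside 23.2% and 20.6% of all genes tested. In class A, which resembles bacterial DnaJ most closely, the median over 4 tested genes was -0.13. Dnaja1, a cytosolic partner of Hsc70, gave 4877 in wild type and 4894, 6374 and 5512 in KO replicates 1, 2 and 3. The wild-type array was lowest by a narrow margin (log2 difference 0.19, SE 0.32). Dnaja2 gave 1409 in wild type and 1469, 1238 and 1132 in KO. Dnaja3, the mitochondrial form known as Tid1, gave 500.1 in wild type and 441, 439 and 499 in KO. Dnaja4 gave 117 in wild type and 129.6, 92.0 and 93.4 in KO. None of the differences of these 3 genes exceeded its standard error.

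Class B had 8 tested genes and a median log2 difference of 0.06. Dnajb1 encodes the heat-inducible HSP40. Its brighter probe set gave 1215 in wild type and 989, 897 and 1128 in KO replicates 1, 2 and 3, all below wild type (log2 difference -0.28, SE 0.32). Its other probe set gave 628 in wild type and 775, 996 and 1676 in KO, all above (log2 difference 0.78). The 2 probe sets of this gene therefore put the wild-type array on opposite sides of all KO arrays, and no direction can be given for it.

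Dnajb12, which sits in the membrane of the endoplasmic reticulum, had the lowest log2 difference of the tested members, -0.81 (SE 0.55, adjusted p = 0.99997 by limma). Its signals were 276 in wild type and 264, 155 and 81.7 in KO replicates 1, 2 and 3. KO replicate 1 was close to the wild-type array, and KO replicate 3 was at background, the only such value among the tested members. A dimmer Dnajb12 probe set gave 121 in wild type and 127, 91.0 and 122 in KO, which overlapped. Dnajb11, a J protein inside the endoplasmic reticulum, had the widest spread, with 512 in wild type and 629.9, 975 and 302 in KO (log2 difference 0.15, SE 0.59). Dnajb2 gave 309 in wild type and 219, 249 and 259 in KO, all lower (log2 difference -0.34, SE 0.31). Dnajb4 gave 491 in wild type and 471, 548 and 858 in KO, where only KO replicate 3 stood well apart.

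Dnajb6 encodes a J protein that restrains the aggregation of polyglutamine proteins. Its brightest probe set gave 2466 in wild type and 2774, 2583 and 3269 in KO replicates 1, 2 and 3, all higher (log2 difference 0.21, SE 0.32). The other probe sets above background in all arrays gave 433, 423, 268 and 231, and 407, 384, 354 and 293, in both of which the wild-type array was the highest. Their log2 differences were -0.52 and -0.24. The Dnajb6 promoter, chr5:29735648-29735947 on the plus strand, is shown as the J protein promoter with the 3 units, here 46 to 34 bases before the start and in capitals.
Dnajb6: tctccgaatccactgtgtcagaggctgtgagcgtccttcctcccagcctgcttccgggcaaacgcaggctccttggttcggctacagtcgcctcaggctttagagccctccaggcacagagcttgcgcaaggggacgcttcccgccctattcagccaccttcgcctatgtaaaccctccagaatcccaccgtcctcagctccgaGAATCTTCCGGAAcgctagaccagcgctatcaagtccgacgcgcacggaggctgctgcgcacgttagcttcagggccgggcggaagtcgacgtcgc

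Class C gathers J proteins with varied other domains, and 19 of its 21 genes were tested. The KO mean was higher in 13 and lower in 6, with a median log2 difference of 0.04. Dnajc4 had the highest value of the class, 0.56 (SE 0.44, adjusted p = 0.99997 by limma), from 202 in wild type and 209, 445 and 301 in KO replicates 1, 2 and 3. KO replicate 1 was again near the wild-type array. Dnajc21, a ribosome biogenesis factor, gave 101 in wild type and 124, 164 and 117 in KO, all higher (log2 difference 0.35, SE 0.33). Dnajc28 gave 105 in wild type and 67.0, 152 and 177.5 in KO, so the KO arrays lay on both sides.

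Dnajc5 encodes the cysteine string protein of synaptic vesicles. Its probe set with the highest mean gave 845 in wild type and 1075, 1199 and 960.0 in KO replicates 1, 2 and 3, all higher (log2 difference 0.34, SE 0.31). Its 4 other probe sets above background had log2 differences from -0.17 to 0.00. The bright members of the class overlapped between genotypes or differed little. Dnajc8, a protein of the spliceosome, gave 3486 in wild type and 3269, 3325 and 3982 in KO. Dnajc9, a histone chaperone, gave 2133 in wild type and 2251, 2469.9 and 2315 in KO (log2 difference 0.14, SE 0.30). Dnajc7, which bridges HSP70 and HSP90, gave 1589 in wild type and 1813, 1398 and 1227 in KO.

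**Figure D2:**
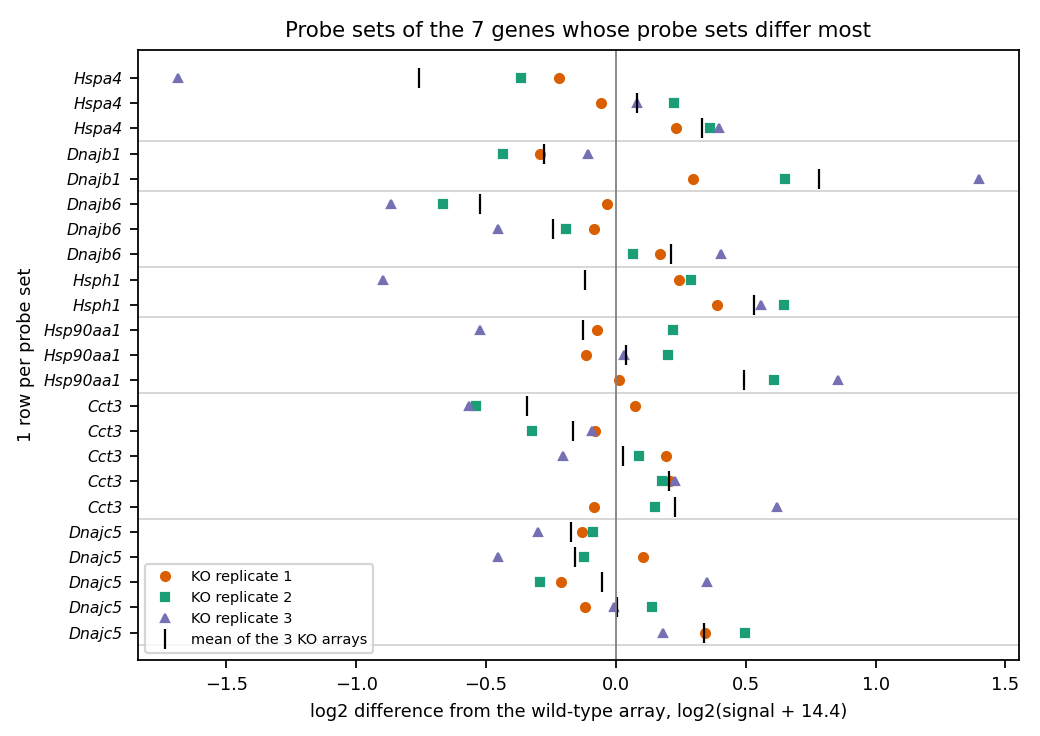
Log2 differences from the wild-type array on log2(signal + 14.4) for the 7 genes whose probe sets above background in all 4 arrays differed by at least 0.5, with 1 row per probe set, 1 point per KO array and a bar for the mean of the 3 KO arrays. The bars lie on both sides of 0 for each of the 7 genes, with the widest spread for Hspa4 (-0.76 to 0.33) and Dnajb1 (-0.28 to 0.78).

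Probe sets of 1 gene often disagreed. Of 26 members with more than 1 probe set above background in all arrays, 11 had probe sets with KO minus wild-type differences of opposite sign. The spread reached 0.5 log2 units in 7 genes, namely Hspa4, Dnajb1, Dnajb6, Hsph1, Hsp90aa1, Cct3 and Dnajc5. These include the inducible genes Hsph1, Dnajb1 and Hsp90aa1. For Hspa4, Hsph1 and Hsp90aa1, KO replicate 3 was the lowest array on 1 probe set and above the wild-type array on another.

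Of the genes with Hspb symbols, 3 of 7 were tested, and only 1 of those 3, Hspb1, encodes a small heat shock protein. Hspb1, or HSP27, gave 154 in wild type and 149, 167 and 232 in KO replicates 1, 2 and 3 (log2 difference 0.20, SE 0.35), with the wild-type array inside the KO range. Hspb2 and Hspb8 were not tested but were above background in all arrays. Hspb2 gave 59.3 in wild type and 72.3, 91.9 and 88.4 in KO, and Hspb8 gave 78.2 in wild type and 88.6, 99.3 and 93.9 in KO. In both the wild-type array was the lowest, and neither has a test. Background in KO replicate 3 was 87.8, so both of its signals lay near background, and both wild-type signals were below that level. Hspa1b, Hspb2 and Hspb8 were the 3 of 14 untested members above background in all arrays. The untested Dnajb3, Dnajb7, Dnajb13, Dnajc5b, Dnajc17, Hspb3 and Hspb7 were at background in at least 1 array.

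The remaining genes of this symbol group have other functions. Hspb11 encodes the cilium transport protein IFT25 and gave 633 in wild type and 444, 670.4 and 1075 in KO replicates 1, 2 and 3 (log2 difference 0.11, SE 0.48). Hspbp1 encodes a nucleotide exchange factor of HSP70. It gave 912 in wild type and 698, 534 and 486 in KO, so all KO arrays were lower, and the gap to the nearest was 0.38 log2 units. The log2 difference was -0.67 (SE 0.34), which had the lowest unadjusted p of the members, 0.0859, with an adjusted p of 0.99997 by limma.

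The mitochondrial chaperonin genes Hspd1, for HSP60, and Hspe1, for HSP10, lie head to head on chromosome 1. Hspd1 gave 8009 in wild type and 7352, 8532 and 6309.9 in KO replicates 1, 2 and 3, with the wild-type array inside the KO range (log2 difference -0.13, SE 0.33). Hspe1 gave 6781 in wild type and 5572, 6876 and 8492 in KO, which also overlapped (log2 difference 0.02, SE 0.35). The order of the KO arrays differed: KO replicate 3 was the lowest of the 4 arrays for Hspd1 and the highest for Hspe1. A second Hspe1 probe set, at 1608, 1342, 1685 and 2317, had the same order as the first.

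The promoter table holds 2 Hspd1 starts. One lies 216 bases before the Hspe1 start on the opposite strand, and its window shares 285 of 300 bases with that of Hspe1. The other lies 95 bases past the Hspe1 start, and its window held no match. The Hspe1 window, chr1:55087898-55088197 on the plus strand, is shown because most of it is also the first Hspd1 window, while the signals of these genes did not follow the same order. The capitals mark 2 overlapping matches to the 3 units, from 89 to 72 bases before the Hspe1 start.
Hspe1: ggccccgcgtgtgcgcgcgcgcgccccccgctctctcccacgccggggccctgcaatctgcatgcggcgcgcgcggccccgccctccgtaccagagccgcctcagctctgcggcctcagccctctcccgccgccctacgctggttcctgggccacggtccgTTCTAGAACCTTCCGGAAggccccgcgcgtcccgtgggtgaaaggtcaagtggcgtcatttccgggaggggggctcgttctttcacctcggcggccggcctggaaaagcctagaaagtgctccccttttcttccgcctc

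**Figure D3:**
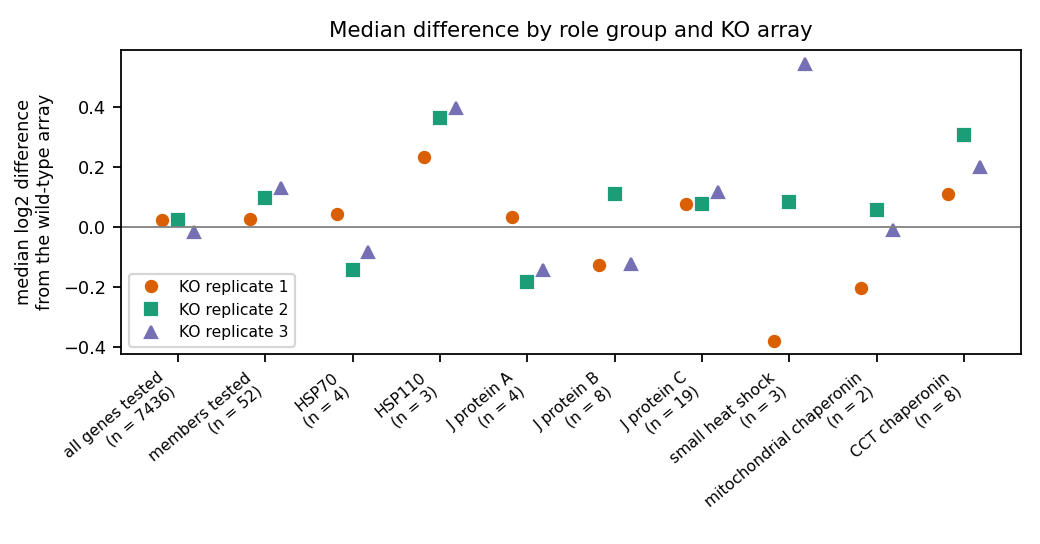
Median over genes of the log2 difference from wild type, on log2(signal + 14.4), by role group and KO array, with the number of genes in each median under its name and 1 point per KO array. The HSP110, CCT and J protein C medians are above 0 in all 3 KO arrays, and those of the other role groups plotted lie on both sides of 0. HSP90, with 1 gene, is not plotted. The group labelled small heat shock holds the genes with Hspb symbols, of which only Hspb1 encodes a small heat shock protein.

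CCT is a ring of 8 different subunits that act as 1 machine, and all 8 subunit genes expressed outside the testis were tested. On the probe set that stood for each gene, the KO mean was higher than the wild-type value for 7 and lower for 1, Cct7. The wild-type array was below all 3 KO arrays for 6 and above for 0. As a share of the 8 genes, 75% had the wild-type array below, beside 23.2% of all genes tested and 19.8% of the 744 brightest. The gap to the nearest KO array was narrow for Cct4 and Cct5, 0.03 log2 units each, and 0.10 to 0.18 for the others of the 6. Over all genes tested, the median difference of KO replicate 1 was 0.02. The CCT median log2 difference was 0.23, from -0.03 to 0.54, and by array it was 0.11, 0.31 and 0.20 in KO replicates 1, 2 and 3. No subunit passed the test (adjusted p = 0.99997 for each by limma). The 44 tested members outside CCT had a median of 0.04, with the wild-type array below all KO arrays in 9 (20.5%) and above in 7 (15.9%). Over all genes tested these shares were 23.2% and 20.6%.

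Cct2 had the highest difference of the subunits, with 5827 in wild type and 6441, 9112 and 10402.5 in KO replicates 1, 2 and 3 (log2 difference 0.54, SE 0.37). Cct4 gave 4798 in wild type and 4897, 7269.7 and 7368 in KO (log2 difference 0.41, SE 0.36). In KO replicate 1 the differences of Cct2 and Cct4 from the wild-type array were 0.14 and 0.03, and the larger ones were in KO replicates 2 and 3. The Cct2 probe set can, by its suffix, match other transcripts, and its other probe sets had log2 differences of 0.16 and 0.41. Tcp1, the subunit also called CCT1, followed the same pairs, with 6072 in wild type and 5771, 7827 and 7714 in KO (log2 difference 0.21, SE 0.33). Cct5 gave 5081 in wild type and 5171, 5718 and 5698 in KO (log2 difference 0.12, SE 0.30).

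The other subunits did not follow the pairs. Cct3 gave 6627 in wild type and 7659, 7504 and 7763 in KO replicates 1, 2 and 3 (log2 difference 0.21, SE 0.30). A Cct3 probe set of similar signal gave 6927 in wild type and 6544, 5533 and 6497 in KO, all lower. By its suffix this probe set can match other transcripts. Over 5 Cct3 probe sets above background in all arrays, the log2 difference ran from -0.34 to 0.23. Cct6a gave 6248 in wild type and 7537, 8422 and 7055 in KO (log2 difference 0.29, SE 0.31). Cct8 gave 3085 in wild type and 4006, 3669 and 3311 in KO (log2 difference 0.24, SE 0.31). KO replicate 1 was farther from the wild-type array than KO replicate 3 for Cct6a and Cct8. The 3 KO arrays of Cct3 were close together on its first probe set only. Cct7 gave 3234 in wild type and 3407, 3428 and 2721 in KO, with the wild-type array inside the KO range (log2 difference -0.03, SE 0.32). Its other probe set, which by its suffix can match other transcripts, gave 2145 in wild type and 2357, 2556 and 2751 in KO. There all KO arrays were higher (log2 difference 0.25). Cct6b, the testis form, was not tested and was above background only in the wild-type array, at 56.3, against 17.3, 24.8 and 48.4 in KO.

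**Figure D4:**
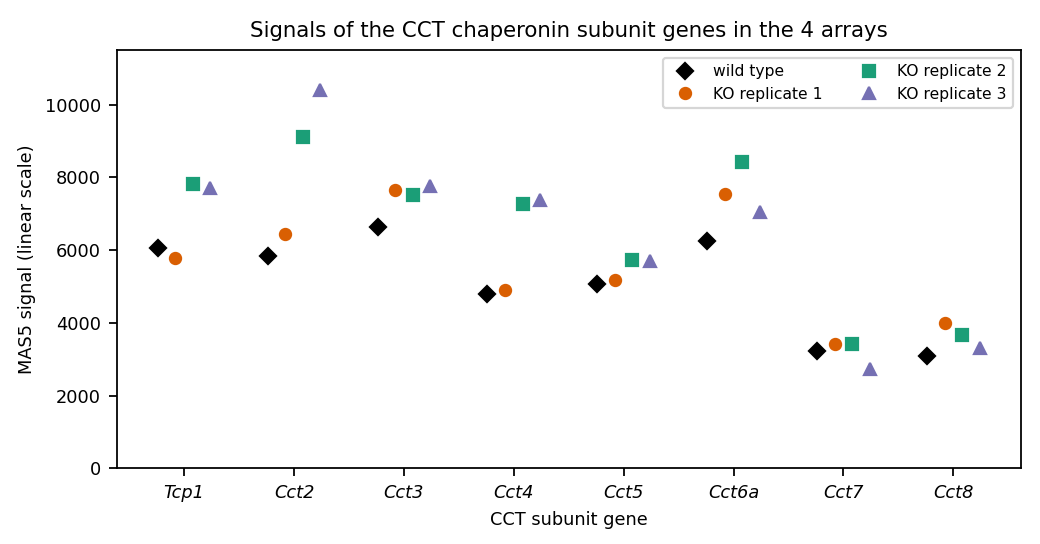
Signals of the 8 tested CCT subunit genes on a linear scale, with 1 point per array and the wild-type array as a diamond. The wild-type point is the lowest of its gene for Cct2, Cct3, Cct4, Cct5, Cct6a and Cct8, and for Cct2, Cct4, Cct5 and Tcp1 both KO replicates 2 and 3 lie above the other arrays.

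The CCT count was similar on separate probe sets and under other scalings. Of 24 CCT probe sets, 21 were above background in all arrays, and the wild-type array was below all KO arrays in 13 and above in 1, a Cct3 probe set. Over all probe sets tested separately, 2766 of 12228 had the wild-type array below and 2886 had it above. The 21 probe sets belong to the same 8 genes, so they are not separate support for the count. By their suffix, 10 of the 21 can match other transcripts. Of the other 11, 8 had the wild-type array below all KO arrays. With quantile normalization the wild-type array was below in 5 of 8 genes and the median was 0.14. Over all genes tested it was below in 1921 of 7436, with a median of 0.02. With the arrays scaled to equal medians the count was 6 of 8 and the median 0.26. Over all genes tested these were 1961 of 7436 and 0.03. With the pairs of arrays as a block, which leaves wild type against KO replicate 1, the median was 0.11, beside 0.02 over all genes.

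Co-chaperones and regulators give the rest of the pathway. Of 49 listed genes 45 were measured and 41 tested, and limma called 0 in either direction. It had 1 of the 41 at an unadjusted p under 0.05, beside 2.26% of all genes tested. The KO mean was higher in 18 and lower in 23, with a median log2 difference of -0.05. The wild-type array was below all KO arrays in 8 (19.5%) and above in 12 (29.3%), beside 23.2% and 20.6% of all genes tested. Fkbp8, an HSP90-binding protein of the mitochondrial outer membrane, gave 2084 in wild type and 1209.8, 752 and 674 in KO replicates 1, 2 and 3. All KO arrays were lower by at least 0.78 log2 units (log2 difference -1.28, SE 0.40, unadjusted p = 0.0147, adjusted p = 0.99997 by limma).

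On the other side, Chordc1, an HSP90 partner, gave 586 in wild type and 783, 1023 and 1359.5 in KO, all higher (log2 difference 0.80, SE 0.38). Cdc37l1, related to the kinase adaptor of HSP90, gave 1135 in wild type and 1389.5, 2359 and 1769 in KO (log2 difference 0.66, SE 0.38). Stip1, which links HSP70 to HSP90, gave 1048 in wild type and 1012, 597 and 718 in KO (log2 difference -0.46, SE 0.38). Pfdn2 belongs to prefoldin, which hands actin and tubulin to CCT. It gave 709.5 in wild type and 653, 437 and 365 in KO, all lower (log2 difference -0.58, SE 0.39).

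The collagen chaperone Serpinh1 gave 1175 in wild type and 1302, 953 and 544 in KO, on both sides. Cryab, a small heat shock protein outside the symbol rule, gave 1424 in wild type and 914, 1165 and 952 in KO, all lower (log2 difference -0.50, SE 0.32). Cryab and Cdc37l1 have 3 probe sets each and Serpinh1 has 2. Only the probe set with the highest mean is given for them, and the others were not compared singly. Bag3, an inducible partner of HSP70, gave 90.5 in wild type and 111, 68.2 and 119 in KO, which overlapped. Hsf2, a heat shock factor, was above background only in KO replicate 2, at 51.6, and Hsf1 was not analysed here.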

How the data were processed

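RNA of 1 wild-type and 3 Olig1 KO samples was hybridised to 1-colour Affymetrix arrays, 1 array each. The authors deposited linear signal intensities, which the submitters' processing notes call MAS5 with no version, and their scaling gave each array a trimmed mean near 500.2. Precision is limited by the number of arrays. Of 22690 probe sets, 64 were controls, 20393 had 1 gene symbol in the platform's annotation, 691 several and 1606 none; symbols were updated through RefSeq (GRCm38.p6), where 24 genes' identifiers were not found and all 66 members matched unchanged.

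Intensities were taken as log2(signal + 14.4), 0.1 times the median as pseudocount, with no further scaling. The probe set with the highest mean stood for a gene, and the lowest 40% of genes were left out. The genotypes were tested in limma 3.58.1 under R 4.3.3 (lmFit and eBayes, both sides), and p-values were adjusted over 7436 genes by Benjamini-Hochberg, with a threshold of 0.05. Since only the KO arrays give a spread (2 residual and 5.23 prior degrees of freedom), the same spread is taken for the lone wild-type array. The members and lists were chosen with earlier results of these data known. Named genes were the inducible and abundant members, all CCT subunits, per role group the 3 brightest and the 3 with the largest moderated t, members spanning 1 log2 unit or more, genes with probe sets that differed by 0.5 or more, and fixed co-chaperones with the 5 largest moderated t. Hspa2 was added to complete its group, and Hspb2 and Hspb8 because they were above background in all arrays. Alternatives changed the scaling, pseudocount, filter, probe set rule, moderation, block and arrays.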

Additional observations from a re-analysis of the deposited data

How the results depend on the processing

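With 1 wild-type array, its own spread was not measured. Limma called 0 members under each of the 14 alternatives. Over all genes the count was 0, except when single KO arrays were left out, where it ran from 0 to 2, with 2 without KO replicate 1. The median log2 difference over the members was 0.1161, and came to 0.0697 with the mean of all probe sets, to 0.0362 with every probe set separately and to 0.0273 when the pair of arrays was a block, and ran from 0.0533 to 0.1253 as single KO arrays were left out (0.0595 without KO replicate 2 and 0.0533 without KO replicate 3). The CCT median was 0.1094 with this block, against 0.2273. Over all genes tested the median was 0.0241 with this block and 0.0223 without KO replicate 3, against -0.0001. The block comes from pairs seen in the data, since the titles share no replicate number between genotypes. At an unadjusted p under 0.05 there were 0 members under each alternative except without KO replicate 1, where there were 3, and 63 to 486 of all genes. For 45 named genes, 11 alternatives gave 493 values (mean of all probe sets for 43 genes), of which 31 had the opposite sign, 14 of them with the block. Under those 11, 25 genes kept 1 sign, but 5 of the 25 have single probe sets of opposite sign. The causes of these shifts were not tested. Dim members such as Hspa1a and Hspa1b lie near background, where these arrays limit what can be measured.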
